A study of Mus musculus with 3 samples.

Results

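The 10 genes studied here belong to meiotic recombination and were followed through the germ cells of the mouse testis: Spo11, Prdm9, Zcwpw1, Dmc1, Meiob, Spata22, Rad51ap2, Msh4, Msh5 and Tex15. They were taken by symbol from the 32285 genes counted in the series, and each symbol matched 1 gene, so all 10 members were measured. The series compared testis cells of adult C57BL/6N mice by single-cell RNA sequencing of transcript 3′ ends, in which each molecule is counted once by its unique molecular identifier (UMI). The wildtype group has 2 libraries of 1 mouse each, and the group labelled as a conditional Tex10 knockout has 1 library of cells pooled from 2 mice. The labels name neither the Cre driver, the deleted exons nor an age beyond adult. Because the pool is a single library, no comparison between the groups has a test, and values are given beside those of both wildtype libraries.

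Recombination in the first meiotic prophase starts with DNA breaks made by SPO11, a topoisomerase-like protein, at sites that PRDM9 marks by histone methylation. The broken ends are trimmed to single strands, which are coated by RPA and by the pair MEIOB and SPATA22. The meiosis-specific strand exchange protein DMC1 then takes part in the search for the matching chromosome, and MSH4 with MSH5 holds joined DNA in place, so that some joints mature into crossovers. ZCWPW1 reads the histone marks left by PRDM9, TEX15 is needed to load DMC1 and also acts in transposon silencing, and the role of Rad51ap2 in meiosis is less clear.

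The libraries held 93418341, 96001773 and 147783171 UMIs in 9967, 10153 and 12918 barcodes, in the order wildtype replicate 1, wildtype replicate 2 and knockout-labelled library, which is the order of all triplets below. After filtering, 7483, 7670 and 11053 barcodes were kept, of which 54.7%, 39.9% and 64.6% lay in clusters of few UMIs and entered no germ cell group. Any 2 libraries shared 17 to 20 of the kept barcodes. Germ cells were grouped by marker genes without use of the 10 members, and the names are those of the markers: spermatogonia-like (86, 94 and 96 cells), preleptotene-like (308, 422 and 331), leptotene to zygotene-like (277, 316 and 351), pachytene-like (218, 217 and 239), diplotene to dividing-like (145, 124 and 110), round spermatid-like and elongating spermatid-like cells. A cluster led by Stambp and Adad2 (190, 295 and 209 cells) scored 0.764 for leptotene to zygotene and 0.731 for pachytene markers. It was left unnamed because its 10 leading genes held 1 marker of another type and no marker of the best-scoring one. Of the preleptotene-like cells, 136, 216 and 147 lay in a first cluster with scores of 1.521 for preleptotene and 1.517 for differentiating spermatogonia markers. In the leptotene to zygotene-like cells all 11 measured markers of that stage reached 5 CPM in each library (CPM, UMIs per 1000000 UMIs of the group). They also did so in preleptotene-like cells, but their sum was 6229, 5657 and 6496 CPM there, against 11346, 11162 and 12275 CPM. In the leptotene to zygotene-like cells markers of peritubular myoid cells summed to 38.8, 41.5 and 41.6 CPM. Those of Sertoli cells summed to 160, 172 and 191 CPM. The knockout-labelled cells were sequenced more deeply, with a median of 10115 UMIs per leptotene to zygotene-like cell against 8229 and 6195. Most elongating spermatid-like clusters separated the knockout-labelled library from both wildtype libraries, with 0, 4 and 502 cells in one and 221, 221 and 8 in another. The cause was not tested, and levels there are given by library only. Tex10 itself was at 155, 133 and 144 CPM in preleptotene-like cells and at 33.6, 32.0 and 22.5 CPM in round spermatid-like cells. Counts at the 3′ end do not check a deletion whose exons are not given, and the third library is therefore called the knockout-labelled library.

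The mean positions of the 10 genes came in the same order in the 3 libraries. Cells from spermatogonia-like to the last spermatocyte-like cells (1224, 1468 and 1336) were placed on 1 axis by diffusion pseudotime and cut into 20 bins of equal cell number. Bins 18 to 20 mix the diplotene to dividing-like cells with a pachytene-like cluster, and the cluster with most cells in bins 19 and 20 differs between libraries, so the end of the axis is not 1 ordered stage. The CPM-weighted mean bin, the centre of a gene's expression on this axis, rose from Tex15 at 5.28 ± 0.08 (SD over the 3 libraries) through Prdm9 at 5.90 ± 0.08, Zcwpw1 at 6.45 ± 0.01 and Dmc1 at 6.70 ± 0.09 to Msh5 at 7.99 ± 0.13. Rad51ap2 followed at 8.51 ± 0.03, Meiob at 9.33 ± 0.08, Spata22 at 9.67 ± 0.10 and Msh4 at 10.17 ± 0.11, and Spo11 came last at 12.73 ± 0.11. By mean bin each of the 45 pairs of genes stood in the same order in each library. Neighbours in this order were further apart than the spread of either between libraries. The bins of highest CPM gave another order. Those of Spo11 (bins 7 to 8) and Spata22 (bin 7) came before those of Rad51ap2, Meiob and Msh4 (bins 9 to 12). In wildtype replicate 1 Prdm9 peaked in bin 5 and Tex15 in bin 6. The mean bin of Spo11 averages an early and a late maximum. The largest shift of a gene between the wildtype libraries was 0.26 bins, for Msh5. The stage of highest CPM was also the same in the 3 libraries for 10 of 10 genes, beside 80.7% of the 11054 genes that reached 20 CPM in a stage. With so few genes this count is near that share, and fewer members shared a stage with doublets kept or after thinning.

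**Figure D1:**
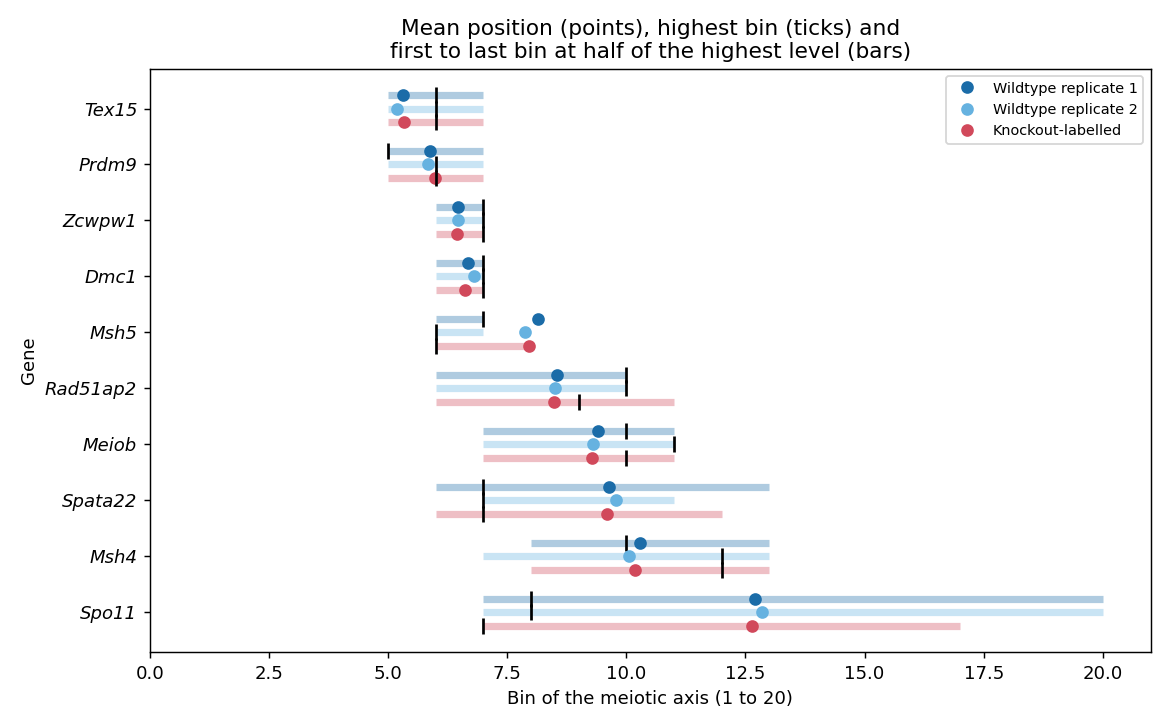
Position of each gene on the meiotic axis (x axis, bins 1 to 20) for the 3 libraries (colours). Points are CPM-weighted mean bins, ticks the bin of highest CPM and bars run from the first to the last bin at 50% of the highest level or above; the order of the points is the same in each library, from Tex15 to Spo11.

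The 5 genes Tex15, Prdm9, Zcwpw1, Dmc1 and Msh5 were highest in the preleptotene-like cells, and within them in the Stra8-led cluster (Stra8 is the retinoic acid-induced gene of meiotic entry), which fills most of bins 5 to 7. Tex15 was the most abundant member and was already high in the first bin, at 500, 547 and 461 CPM. It reached 1794, 1995 and 1986 CPM in bin 6 and fell to 65.0, 79.9 and 88.2 CPM by bin 10. The 3 libraries lay close together at the peak, and the fall took place over the same bins.

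Zcwpw1 was also present before meiosis, at 175, 171 and 218 CPM in bin 1, and peaked in bin 7 of each library at 1368, 1184 and 1557 CPM. Prdm9, the methyltransferase whose marks ZCWPW1 binds, was nearly absent from bin 1 (0, 3.04 and 5.96 CPM) and peaked in bins 5 to 6 at 269, 261 and 275 CPM. The reader gene thus preceded the writer gene in spermatogonia-like cells and outlasted it: in bin 10 Prdm9 was at 1.44, 2.10 and 2.78 CPM while Zcwpw1 was at 80.9, 75.7 and 112 CPM. Both genes stayed at or above 50% of their highest level for only 3 bins (Prdm9) and 2 bins (Zcwpw1) in each library. The 3′ end of Zcwpw1 overlaps Pilra on the other strand, with 21.5% of its 31-base words shared, but Pilra was at most at 1.2 CPM in any germ cell group.

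Dmc1, the strand exchange protein of meiosis, peaked in bin 7 of each library at 652, 494 and 513 CPM and was down to 1.30, 3.56 and 2.36 CPM in bin 13. It started from 27.0, 23.3 and 25.8 CPM in bin 1, and at the peak the knockout-labelled library lay between the wildtype libraries. Msh5 rose from 9.95, 19.8 and 6.77 CPM in bin 4 to a peak in bins 6 to 7 of 181, 183 and 164 CPM. Its mean bin lies later than its peak because a low level persisted, with 44.8, 27.3 and 31.3 CPM in bin 10 and 5.69, 5.51 and 4.62 CPM in bin 20.

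**Figure D2:**
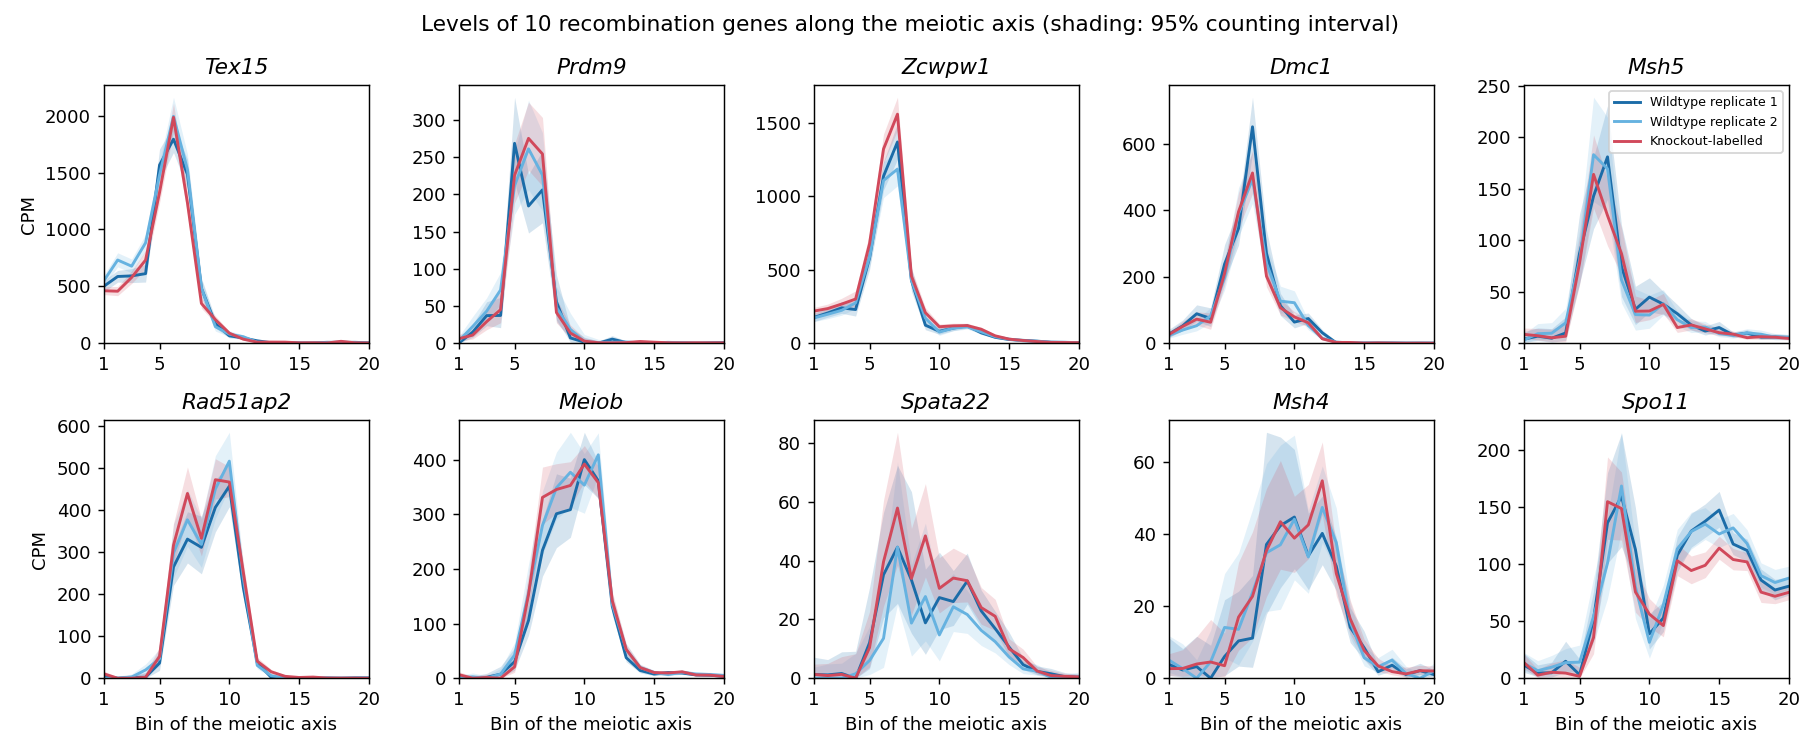
CPM (y axis, own scale in each panel) of the 10 genes in 20 bins of the meiotic axis (x axis), ordered by mean position; lines are libraries and shading is the exact Poisson interval, which covers counting error only. Tex15 to Msh5 peak in bins 5 to 7, Rad51ap2 and Meiob in bins 9 to 11, and Spo11 shows a maximum on each side of a trough in bins 10 to 11.

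RefSeq promoters (build GRCm38.p6, 250 bases before to 50 bases after the start) were matched by symbol for 7 of the 10 genes; Spo11, Meiob and Tex15 had none. For Prdm9 and Zcwpw1, with more than 1 promoter, the one nearest the annotated gene start was taken; that of Msh4 starts 1247 bases from it. The 4 motifs below were searched on both strands: CNCCTCAG, the site of STRA8, TTCCCGC, the core of E2F sites, TGACGTCA, the site of CRE-binding factors, and GGCAGTT, the site of MYB factors. CNCCTCAG was found in 2 of the 7 (Prdm9 and Msh5) and in 7.94% of all 32851 promoters in the table. TTCCCGC was found in 4 of the 7 (Prdm9, Msh5, Spata22 and Rad51ap2) and in 4.60% of all promoters. Neither TGACGTCA (1.79% of all) nor GGCAGTT (4.12%) was found in the 7. The promoters with a match are shown 5′ to 3′ on the gene's strand, with matches to either motif in capitals, to set the early pair Prdm9 and Msh5 beside the later pair Rad51ap2 and Spata22.
Prdm9, chr17:15564305-15564604, minus strand: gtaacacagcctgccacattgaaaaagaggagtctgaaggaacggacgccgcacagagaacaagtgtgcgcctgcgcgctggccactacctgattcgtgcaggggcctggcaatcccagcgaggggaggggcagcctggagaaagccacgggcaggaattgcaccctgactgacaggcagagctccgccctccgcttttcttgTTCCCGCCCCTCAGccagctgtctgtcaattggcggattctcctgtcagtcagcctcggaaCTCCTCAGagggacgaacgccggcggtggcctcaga
Msh5, chr17:35046573-35046872, minus strand: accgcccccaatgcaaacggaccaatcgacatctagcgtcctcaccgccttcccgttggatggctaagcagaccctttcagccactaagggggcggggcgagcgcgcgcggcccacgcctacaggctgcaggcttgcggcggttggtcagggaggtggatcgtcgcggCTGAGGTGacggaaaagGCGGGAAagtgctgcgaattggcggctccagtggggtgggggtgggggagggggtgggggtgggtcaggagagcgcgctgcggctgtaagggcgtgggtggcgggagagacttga
Rad51ap2, chr12:11455805-11456104, plus strand: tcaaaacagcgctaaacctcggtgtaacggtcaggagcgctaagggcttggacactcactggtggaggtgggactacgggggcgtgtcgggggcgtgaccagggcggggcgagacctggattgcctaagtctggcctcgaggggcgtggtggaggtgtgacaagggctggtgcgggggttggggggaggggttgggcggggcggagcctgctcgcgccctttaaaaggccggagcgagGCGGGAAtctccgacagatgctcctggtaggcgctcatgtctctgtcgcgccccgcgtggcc
Spata22, chr11:73329491-73329790, plus strand: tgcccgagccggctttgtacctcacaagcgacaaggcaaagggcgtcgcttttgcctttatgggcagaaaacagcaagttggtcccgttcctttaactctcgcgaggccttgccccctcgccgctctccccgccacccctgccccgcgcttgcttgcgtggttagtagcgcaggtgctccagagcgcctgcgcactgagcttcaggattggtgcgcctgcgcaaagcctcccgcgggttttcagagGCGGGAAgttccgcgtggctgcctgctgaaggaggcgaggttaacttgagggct
Of the 4 matched genes highest in the Stra8-led cells, Zcwpw1 and Dmc1 hold none of the motifs, and Prdm9 and Msh5 hold both CNCCTCAG and TTCCCGC. In Prdm9 a TTCCCGC match runs into a CNCCTCAG match with 1 shared base while a further CNCCTCAG match stands alone. In Msh5 the CNCCTCAG match and the TTCCCGC match are both on the opposite strand. Rad51ap2 and Spata22, with later mean bins, hold the E2F core only, also on the opposite strand, and Msh4 holds none. A match is a description of letters and says nothing of binding.

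Rad51ap2, Meiob, Spata22 and Msh4 had their highest stage in leptotene to zygotene-like cells. Rad51ap2 rose to 265, 299 and 317 CPM in bin 6, peaked in bins 9 to 10 at 458, 517 and 473 CPM and had dropped to 36.9, 30.4 and 40.5 CPM in bin 12. Meiob, the single-strand binding protein, rose a little later and reached 400, 409 and 392 CPM in bins 10 to 11. It fell more slowly than Rad51ap2 and was still at 132, 136 and 142 CPM in bin 12. The 2 genes were similar in abundance, and the end of their expression separated them in each library.

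Spata22, the partner of MEIOB, was far less abundant by 3′ UMIs, with 44.6, 44.6 and 57.9 CPM in its highest bin, bin 7. Of the cells of bin 7, 57.8%, 60.3% and 69.6% were of the Stra8-led preleptotene-like cluster, so the highest bin and the highest stage of Spata22 differ. Counts were small, with 32, 19 and 49 UMIs of Spata22 in that whole cluster. Its level was spread over up to 7 bins. Over stages Spata22 correlated most with Meiob (Pearson r of 0.94 over 24 stage and library values, the highest among the 45 pairs of members). Points of 1 library share its depth, and the decline of the genes differed. Meiob was at 337, 346 and 359 CPM in the Rad51ap2-led leptotene to zygotene-like cluster. It was at 29.9, 37.7 and 38.7 CPM in the Stambp- and Adad2-led cells. Spata22 fell less between these clusters, from 29.5, 21.5 and 33.7 CPM to 19.1, 12.6 and 20.4 CPM. The last bases of Spata22 share 47.0% of their 31-base words with the overlapping gene model Gm49340, which is not among the counted genes, so its absolute level is uncertain. Msh4 reached 44.8, 47.4 and 54.8 CPM in bins 10 to 12 and was at 1.81, 3.19 and 3.42 CPM in bin 16. Msh4 and its partner Msh5 did not peak together: Msh5 was highest in bins 6 to 7 and Msh4 3 bins later or more, and their r over stages was 0.48.

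Spo11 had an early and a late maximum, and over the 20 bins its trough lay below the counting intervals of both in each library, which was found for no other member by bins; this feature was chosen after its profile was seen. In wildtype replicate 1 it reached 160 CPM (95% interval 116 to 215) in bin 8, fell to 39.0 CPM (25.7 to 56.7) in bin 10 and rose to 148 CPM (133 to 164) in bin 15. In wildtype replicate 2 the values were 169 CPM in bin 8, 31.5 CPM in bin 10 and 135 CPM in bin 14. In the knockout-labelled library they were 155 CPM in bin 7, 46.2 CPM in bin 11 and 114 CPM in bin 15. Spo11 is known to give splice forms that differ in timing, which 3′ counts do not separate. The late maximum was in the Stambp- and Adad2-led and pachytene-like cells, where Prdm9 was at 1.77, 0.78 and 1.27 CPM and Dmc1 at 3.28, 2.13 and 2.99 CPM in the former.

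Cells grow during meiosis, and the median UMI total rose from 5540 in bin 7 to 75675 in bin 17. In UMIs per cell the late expression of Spo11 therefore outweighed the early one. It stood at 0.96, 0.79 and 1.31 UMIs per cell in bin 8 and at its highest at 8.51, 6.32 and 10.2 UMIs per cell in bins 15 to 17. In the wildtype libraries the dip between them was also present per cell, at 0.48 and 0.26 UMIs in bin 10. In the knockout-labelled library the bins of the CPM dip showed none per cell, with 1.09 UMIs in bin 7 and 1.15 UMIs in bin 11. A lower value of 0.72 UMIs per cell lay in bin 9 of that library. Zcwpw1 kept its peak in bin 7 on this scale, at 7.67, 5.85 and 10.9 UMIs per cell. Msh5 kept its peak bin too, but its mean bin moved from 7.99 to 11.3, behind Rad51ap2 at 9.31 and Meiob at 10.9. By UMIs per cell the mean bin of Zcwpw1, 7.80, also lay behind that of Dmc1, 7.03, the reverse of their CPM order. The other genes kept their CPM order among themselves, and cells thinned to 5000 UMIs gave the CPM order of the 10 genes.

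**Figure D3:**
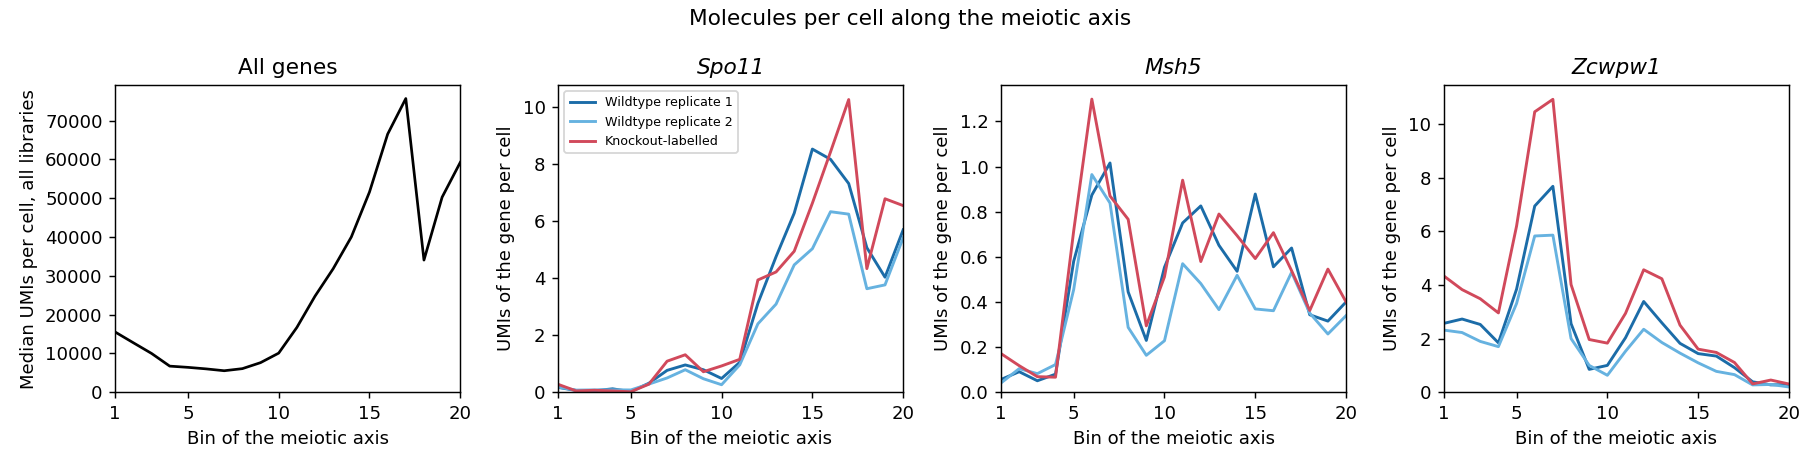
Median UMIs per cell of all genes (left) and mean UMIs per cell of Spo11, Msh5 and Zcwpw1 in each library (y axes) over the 20 bins of the meiotic axis (x axis). Spo11 is highest in bins 15 to 17, where cells hold the most UMIs, and Zcwpw1 in bin 7.

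The share of cells with a UMI, taken after thinning each cell to 5000 UMIs, showed which genes reached nearly all cells of a stage. Tex15 was seen in 95.5%, 96.4% and 94.8% of preleptotene-like cells (exact binomial 95% interval in wildtype replicate 1, 92.2% to 97.6%; before thinning 98.7%, 96.4% and 98.2%). Prdm9 was seen in 40.5%, 38.2% and 44.4% of them. Meiob was seen in 82.1%, 83.8% and 82.0% of leptotene to zygotene-like cells, and Rad51ap2 in 71.7%, 72.2% and 84.1%. The interval for Rad51ap2 was 79.7% to 87.8% in the knockout-labelled library, and those of the wildtype libraries ended at 77.3% and 78.1%. These intervals take the cells of 1 library as units and cover counting error alone. The share of all genes with such a gap was not computed, so no difference between the groups is read from it. Thinning left out 44, 142 and 7 preleptotene-like cells and 37, 100 and 18 leptotene to zygotene-like cells. In peritubular myoid-like cells, which should lack these genes, Meiob was seen in 0 of 83, 57 and 83 cells, which allows shares of up to 3.61%, 5.26% and 3.61%, and Tex15 in 2.41%, 5.26% and 6.02%. RNA of other cells was present in the droplets: the 12 markers of elongating spermatids summed to 5607, 7161 and 5888 CPM in leptotene to zygotene-like cells, and its part in low levels of the members was not tested.

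**Figure D4:**
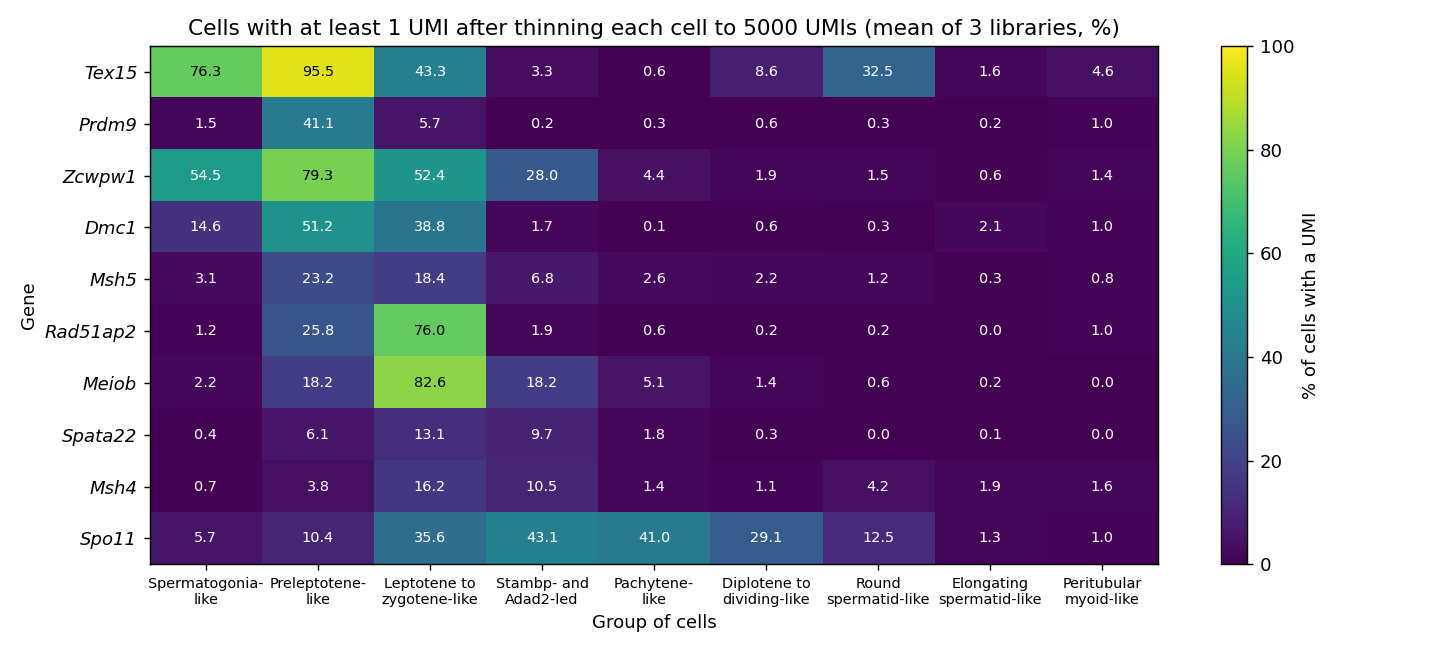
Share of cells with at least 1 UMI (colour and printed percent, mean of the 3 libraries) for the 10 genes (rows) in 9 groups of cells (columns) after thinning to 5000 UMIs per cell. Tex15 reaches 95.5% of preleptotene-like cells and returns at 32.5% in round spermatid-like cells.

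After the divisions Tex15, which had fallen and rose again, and Spo11, which had not been lost, stood well above the myoid-like cells. Msh4 also kept part of its level, and its values follow those of these genes. Tex15 was almost absent from pachytene-like cells at 3.0, 1.4 and 2.1 CPM. By clusters it was higher again in the diplotene to dividing-like cells, at 15.3, 15.9 and 17.0 CPM, with counting intervals above those of the pachytene-like clusters in each library. It stood at 75.3, 76.1 and 72.6 CPM in round spermatid-like cells. It was seen in 32.9%, 32.9% and 31.6% of the thinned round spermatid-like cells. In 3 of the 4 round spermatid-like clusters it was at 81.8 to 110 CPM, and in the cluster led by 4930405D11Rik at 25.1 CPM. Spo11 declined from 61.7, 66.6 and 58.0 CPM in diplotene to dividing-like cells to 28.0, 28.3 and 19.8 CPM in round spermatid-like cells. In the myoid-like cells it was at 0, 2.12 and 5.76 CPM. Its level across the 4 round spermatid-like clusters ran from 43.0 down to 5.2 CPM, the last again in the cluster led by 4930405D11Rik.

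Msh4 was at 8.26, 8.69 and 8.61 CPM in round spermatid-like cells, and in the cluster led by 4930405D11Rik, where Tex15 and Spo11 were lowest, at 19.1 CPM. Its share of thinned round spermatid-like cells (4.81%, 3.74% and 3.99%) could not be told from that of the myoid-like cells (0%, 3.51% and 1.20%) at this depth, since the intervals overlap. Dmc1 was seen in 1.74%, 1.71% and 2.74% of thinned elongating spermatid-like cells against 1.20%, 1.75% and 0% of myoid-like cells (intervals up to 6.53%, 9.39% and 4.35%). In thinned round spermatid-like cells it was seen in 0.58%, 0.11% and 0.17%, and relative to its highest stage its CPM was at 1.99%, 2.35% and 3.09% in elongating spermatid-like and at 0.47%, 0.41% and 0.55% in round spermatid-like cells. The elongating spermatid-like value of Dmc1 was thus above the round one in each library, while the few myoid-like cells do not separate it from background. The other 7 members were at most at 3.4 CPM in round spermatid-like cells.

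None of the 10 genes differed by the size required below between the knockout-labelled library and the wildtype libraries. To be called changed in a stage, a gene had to lie on the same side of both wildtype libraries by a log2 ratio of 1 or more (computed on CPM + 1), with the smaller of these ratios 2 times or more that separating the wildtype mice. It also had to reach 20 CPM in 1 library, which left 29 of the 80 member and stage pairs, with at least 1 stage for each member. In preleptotene-like cells 0 of 8 members were called, against 0.283% of the 7420 genes tested, and in leptotene to zygotene-like cells 0 of 9, against 0.206% of 6811. In the Stambp- and Adad2-led cells 0 of 5 members were called (0.409% of all genes) and in spermatogonia-like cells 0 of 3 (0.441%). In pachytene-like, diplotene to dividing-like and round spermatid-like cells 0 of 1, 0 of 1 and 0 of 2 were called, beside 0.765%, 1.13% and 1.24% of all genes; no member reached 20 CPM in elongating spermatid-like cells, where 1.43% of all genes were called. With so few genes called in all, a count of 0 members is near the background. The median log2 ratio of the tested members to the wildtype mean was 0.11 in preleptotene-like cells (all genes 0.01) and 0.06 in leptotene to zygotene-like cells (all genes 0.04).

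**Figure D5:**
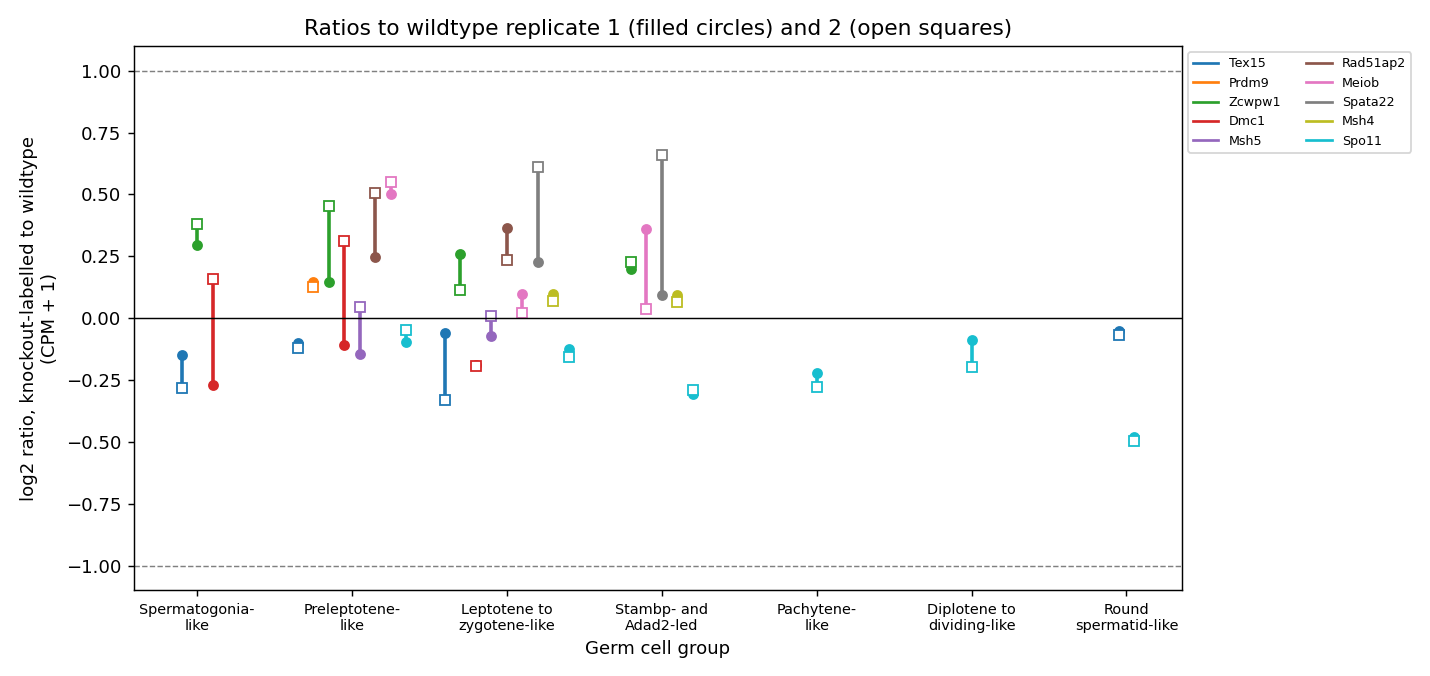
log2 ratio (y axis, 1 CPM added) of the knockout-labelled library to wildtype replicate 1 (filled circles) and 2 (open squares) for each gene that reached 20 CPM, by germ cell group (x axis); dashed lines mark a log2 ratio of 1 in size. All 29 pairs lie between the dashed lines, with Spo11 below 0 in each of its 6 stages.

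The lowest level relative to wildtype was that of Spo11 in round spermatid-like cells, at 19.8 CPM against a mean of 28.1 ± 0.24 CPM in wildtype (SD, n = 2), which is 70.3%. The cluster led by 4930405D11Rik, where Spo11 was lowest, held 122, 188 and 163 round spermatid-like cells, and that where it was highest held 192, 261 and 127. With the clusters weighted equally, an alternative added after seeing the data, the log2 ratio was -0.31 instead of -0.49. Spo11 was below both wildtype libraries in each of the 6 stages where it was tested. In the Stambp- and Adad2-led cells it was at 132, 131 and 107 CPM, and in pachytene-like cells at 106, 111 and 91.1 CPM. Of the 2954 genes tested in the same 6 stages, 6.84% were below both wildtype libraries in each of them. The size of the difference, 0.05 to 0.50 on the log2 scale against either wildtype library, stayed under the rule in each stage.

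Tex15 was below both wildtype libraries in 4 of 4 stages (6.77% of the genes tested in these stages), with 1083, 1100 and 1011 CPM in preleptotene-like cells. Zcwpw1 was above both in 4 of 4 stages (9.01% of genes), with 577, 466 and 639 CPM in preleptotene-like cells, where the wildtype libraries themselves differed by more than wildtype replicate 1 did from the knockout-labelled library. Meiob was above both in 3 of 3 stages (14.5%), and its 45.7, 44.1 and 65.0 CPM in preleptotene-like cells were the highest ratio of any pair, 145% of the wildtype mean. Rad51ap2 was at 273, 298 and 351 CPM in leptotene to zygotene-like cells, above both in 2 of 2 stages (22.6%). Prdm9, with 112, 114 and 125 CPM in preleptotene-like cells, was above both in its 1 tested stage (37.2%), and Spata22 and Msh4 were above both in 2 of 2 stages (21.7% of genes each).

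These sides and sizes depended on which cells made up a stage. With doublets kept, clustering gave a smaller preleptotene-like group (119, 211 and 141 cells) and another unnamed cluster, and 6 of the 29 ratios changed sign. Among them Meiob in preleptotene-like cells was at 27.3, 30.2 and 14.6 CPM, a log2 ratio of -0.93 instead of 0.53, so that its direction there does not hold. Spo11 in the unnamed cells moved from -0.30 to 0.10 and Tex15 in leptotene to zygotene-like cells from -0.20 to 0.13. Msh4 in the unnamed cells reached 0.88, the mean of its log2 ratios to each wildtype library. It was at 7.16, 15.8 and 20.5 CPM there, so the wildtype libraries themselves differed widely. With a minimum of 3000 UMIs per cell 5 of 24 ratios changed sign, among them Spo11 in preleptotene-like cells (0.11) and Tex15 in leptotene to zygotene-like cells (0.38). The ratio of Spo11 in round spermatid-like cells was -0.48 with doublets kept and -0.49 with 3000 UMIs.

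Dmc1 was at 200, 149 and 185 CPM in preleptotene-like cells, between the wildtype libraries, as in spermatogonia-like cells, and at 113, 113 and 99.2 CPM in leptotene to zygotene-like cells, where it was below both, as were 29.1% of all genes tested. Msh5 lay between them in both stages where it was tested. Within single clusters the largest difference was that of Tex15 in the earlier of the leptotene to zygotene-like clusters, the one led by Pet2 and Scml2, at 552, 559 and 348 CPM. Dmc1 in that cluster was at 299, 272 and 196 CPM. The cells of this cluster also lay slightly later on the axis in the knockout-labelled library. Their median position was 38.8% of the axis against 37.7% and 37.4%. Both genes fall steeply there, and the part of this in the difference was not tested. The sides given by stage did not hold in each cluster. Prdm9 was above both wildtype libraries in the Stra8-led cluster (log2 ratio to their mean 0.19). It was below both in the first preleptotene-like cluster (-0.59) and in the Pet2- and Scml2-led one (-0.46). Zcwpw1 (-0.04) and Msh4 (-0.24) were also below both in the latter. Tex15 was above both in the Rad51ap2-led cluster (0.21). Rad51ap2 and Spata22 were above both in each cluster where they reached 20 CPM.

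Positions on the axis differed by little. The mean bin of the knockout-labelled library lay within the wildtype range for Msh4 and Msh5 and outside it for the other 8 genes, by no more than 0.15 bins from the wildtype mean in any gene. For 6 of the 10 genes the distance from the wildtype mean was smaller than that between the wildtype libraries; it was larger for Spo11, Prdm9, Zcwpw1 and Dmc1, at -0.15, 0.12, -0.02 and -0.12 bins.

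A further 50 genes of the pathway were taken as background in 5 lists, and 39 of them had the same highest stage in the 3 libraries. Of the 6 genes of the break machinery, 4 (Mei1, Mei4, Ccdc36 and Gm960, of which the first 3 are named after their values were seen) were highest in preleptotene-like cells. Ankrd31, which anchors the break machinery on the X and Y pairing region, peaked in leptotene to zygotene-like cells at 243, 234 and 270 CPM, and Gm960 was at 19.4, 15.7 and 19.5 CPM there. Among the 4 partners of PRDM9, Hells, the chromatin remodeller that opens hotspots, peaked with Prdm9 in preleptotene-like cells at 766, 789 and 901 CPM. Ewsr1 was highest in leptotene to zygotene-like cells, at 331, 330 and 284 CPM. None of the 10 genes of these lists was called in a stage.

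Among the 6 genes of break signalling and end processing, 3 peaked in preleptotene-like cells in each library and none was called. Rbbp8, which starts the trimming of broken ends, was at 139, 157 and 177 CPM in leptotene to zygotene-like cells, and Rad50 at 98.2, 109 and 106 CPM. The strand exchange list held 20 genes, of which 18 were tested. Psmc3ip and Mnd1, whose products form the complex that assists DMC1, were its most abundant members in leptotene to zygotene-like cells, at 455, 411 and 393 CPM and at 177, 156 and 174 CPM. Mnd1 peaked in that stage, while Psmc3ip rose on to 743, 681 and 745 CPM in the Stambp- and Adad2-led cells, where Dmc1 was nearly absent.

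Rpa3, the small subunit of the single-strand binding complex RPA, was the only gene called among the 46 list genes tested, which is 2.17% of them beside 1.64% of the 11054 genes tested in any stage. In preleptotene-like cells it was at 108, 104 and 50.5 CPM, 47.9% of the wildtype mean, and in the Stambp- and Adad2-led cells at 39.6, 35.8 and 16.1 CPM, 42.8%. In leptotene to zygotene-like cells its 37.9, 39.0 and 18.7 CPM just missed the limit, with log2 ratios of -0.98 and -1.02. It was below both wildtype libraries in each of the 4 stages where it was tested, as were 6.66% of the 4684 genes tested there. Rpa1 and Rpa2, the other subunits, were not called in any stage. Of the 14 crossover genes, 12 were tested and none called. Cntd1 was at 318, 307 and 259 CPM and Hfm1, a helicase of the crossover pathway, at 175, 166 and 190 CPM in leptotene to zygotene-like cells, both at their highest there together with Msh4.

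For each member, the 2 genes outside the lists with the most similar levels over the 8 stages and 3 libraries were named by Pearson r of log2(CPM + 1), as a description over 24 points that share library and depth. They were Gm773 and Otud5 for Tex15 (r of 0.99 and 0.98), Stxbp5l and Gm4969 for Prdm9 (0.97 each; Gm4969 is a fixed preleptotene marker), Uba6 and Uggt1 for Zcwpw1 (0.99 each), and Rpl39 and Evl for Dmc1 (0.98 and 0.97). They were Gnptg and Inca1 for Msh5 (0.99 and 0.97), Sptlc1 and Prss50 for Rad51ap2 (0.97 and 0.95), Gm30363 and Npm3 for Meiob (0.96 each) and Hist1h2ba and Gapvd1 for Spata22 (0.97 and 0.96). Mrpl53 and Capza1 were closest to Spo11 (0.99 and 0.98), and Tbcel and Carm1 to Msh4 (0.88 each), the lowest likeness among the 10.

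All 10 genes are protein-coding in GENCODE M21 (GRCm38, the build that mm10 names). Spo11 lies at chr2:172977700-172993576 and Rad51ap2 at chr12:11456079-11462928 on the plus strand, with Zcwpw1 at chr5:137787798-137822621, Meiob at chr17:24804289-24839788, Spata22 at chr11:73329741-73346044 and Tex15 at chr8:33516738-33585582 also on the plus strand. Prdm9 at chr17:15543079-15564354, Dmc1 at chr15:79561497-79605109, Msh4 at chr3:153857149-153906138 and Msh5 at chr17:35028605-35046745 lie on the minus strand.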

How the data were processed

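Testis cells of 3 libraries were measured. The deposited values are whole-number UMI counts per gene and barcode, made by the authors with Cell Ranger 4.0.0; Seurat 4.0.5 and the build mm10 are also named in the submitters' processing notes. Whether counting used strand is not given in the sources used here. Barcodes with at least 1000 UMIs, 500 genes and at most 10% mitochondrial UMIs were kept. Scrublet called 0, 1 and 0 doublets and so had not worked, and the barcodes with the top 8% of its scores were left out in each library. Cells of all libraries were clustered with scanpy 1.11.5 (2000 variable genes without the members and pathway lists, 30 components, Leiden resolution 1), and clusters with a median UMI total under 3 times the lowest deposited total were set aside as low in UMIs. Germ cells were clustered again and named from fixed markers. Spermatogonia-like to spermatocyte-like cells were ordered by diffusion pseudotime and divided into 20 bins. UMIs were summed per library and stage or bin and divided by the sum of all genes (CPM); Poisson and binomial (Clopper-Pearson) 95% intervals cover counting error only, and the floor for a count of 0 is 3 counts. With 1 knockout-labelled library no test was possible, and genes were called by the size rule given with the results, which was tested on simulated counts. No columns were left unmapped.

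The members and lists were chosen with earlier results of these data known. The low-UMI limit, the resolution of the second clustering (another was tried), the restriction of the axis to cells up to the last spermatocyte-like cells and the description of Spo11 by a pair of maxima were chosen after cluster order or member profiles had been seen. Named genes were all members, the 2 genes of each pathway list with the highest mean level in leptotene to zygotene-like cells, any list gene called, and the 2 genes most like each member. Alternatives covered the pseudocount, the filter on low values, the size limit, TMM scaling (edgeR 4.0.16), doublets, the UMI minimum, the variable genes, the bins, the axis and each wildtype library left out.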

Additional observations from a re-analysis of the deposited data

How the results depend on the processing

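No paired analysis was possible because the knockout-labelled group has 1 library and its pooled mice share no number with the wildtype mice. By mean bin, the order of all 45 member pairs was the same in the 3 libraries with doublets kept or a minimum of 3000 UMIs. It was also the same with 10 or 40 bins, members and lists allowed among the variable genes, or an axis computed within each library. By UMIs per cell and after thinning it was the same for 44 pairs. The highest stage was shared by the 3 libraries for 10 members in the main setting and with lists allowed, for 9 by UMIs per cell and with 3000 UMIs, and for 8 after thinning and with doublets kept. The size rule called 181 genes in at least 1 stage; without the filter on low values it called 1348, with a limit of 1.5-fold 607, and with 1 wildtype library left out 281 to 302. It called 0 members under each setting except without the filter, where Meiob in spermatogonia-like cells was called on 1, 2 and 10 UMIs. With doublets kept the log2 ratios of members ran from -0.93 to 0.88 instead of -0.49 to 0.53, over stages made of other cells. Signs changed for 6 of 29 member ratios with doublets kept, 5 of 24 with 3000 UMIs, 3 and 1 without wildtype replicate 1 and 2, 2 with equal weights and 1 without the first preleptotene-like cluster. Equal weights for clusters, and leaving out the first preleptotene-like cluster with the unnamed cells, were added after seeing the data and gave 196 and 192 genes. Depth limits the members below 20 CPM, and 1 pooled library leaves the spread between knockout mice unknown.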

Other observations

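Members were also counted in the barcodes set aside as low in UMIs, as values only. In a cluster with Spam1, Pdilt and Spaca1 among its 10 leading genes (558, 385 and 369 barcodes) Tex15 stood at 270, 227 and 223 CPM. In another, with Gm34678, Acrv1 and Spam1 among them (169, 100 and 187 barcodes), it stood at 315, 286 and 320 CPM. Both were above its level in round spermatid-like cells in each library. Msh4 was at 37.2, 38.4 and 34.3 CPM in the latter cluster, close to its level in leptotene to zygotene-like cells. Spo11 was at 89.8, 90.8 and 80.3 CPM in a cluster with Pxt1 and Aurka among its 10 leading genes.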
